A study of Bos taurus with 2 samples.

Results

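The cytosolic ribosomal protein genes were the gene names of the array that start with RPL or RPS and whose description holds the words ribosomal protein, without those described as kinases or as mitochondrial. This rule took 84 of the 32429 gene names, read by 272 probes on 287 spots. One of the 84, RPS19BP1, encodes a protein that binds RPS19 and is not itself a ribosomal protein. The names are checked here only as the array gives them, and all 84 also stand as symbols in the ARS-UCD2.0 gene table. The study set the testis of crossbred bulls, in which subfertility is frequent, beside that of Zebu bulls. The crossbred bulls were Holstein Friesian crosses, the Zebu bulls were of the Tharparkar breed, and all were 24 months old. A testis was removed from each of 3 bulls of either group, the RNA of a group was pooled in equal amounts, and each pool was hybridized to a single array with Cy3. Every difference below is the crossbred level minus the Zebu level on the log2 scale, a pool has no replicate, and so no p-value can be given.

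The ribosome is built from a large and a small subunit, each of which holds ribosomal RNA and a set of proteins named RPL and RPS. Their messages are among the most abundant in most cells, and their translation is adjusted together through the mTOR pathway. In the male germ line the X chromosome is silenced during meiosis, and mammals carry autosomal copies of some X-linked ribosomal protein genes, of which RPL10L is needed for meiosis in male mice.

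A level is the log2 of the processed signal after the 75th percentile of its array was subtracted. A gene was read from its brightest probe over both arrays. Of the spots that were not controls, 72.0% in the crossbred and 74.3% in the Zebu pool were well above background, and none was saturated. The only errors available were the SD between replicate spots of a probe, which was 0.34 for a difference over 5960 probes of the array, and the spread between different probes of a gene. Both cover spotting, scanning and probe design and leave out the animals and the labelling. The 0.34 combines the SDs within the crossbred (0.29) and the Zebu array (0.18). Over the 11 ribosomal protein probes with several spots, the SD was pooled from the differences of single spots and was 0.10. These 2 values are therefore not the same measure. The widest spread, 0.35, was among the 4 spots of RPL32. Both the 0.10 and the 0.35 leave out a spot of RPL36AL at -1.87, marked as an outlier. All 272 probes were well above background on both arrays. No spot of these genes lay in the dark patch of the crossbred array, in rows 54 to 99 and columns 35 to 46. In the bright patch lay 1 spot, which belonged to RPL7.

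The sequences shown here are those of probes on which the results turn, printed from 5′ to 3′ as the array lists them, with positions on HGSC Btau_3.1. A pair of RPL10 probes on the plus strand is shown because these probes read the gene at nearly the same place, at chrX:23718953-23719012 and chrX:23718955-23719014. Capitals mark the bases at which they differ.
RPL10, upper probe: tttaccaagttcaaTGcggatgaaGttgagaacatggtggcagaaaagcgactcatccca
RPL10, lower probe: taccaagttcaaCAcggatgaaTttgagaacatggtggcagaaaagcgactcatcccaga
The probe of RPL10L, the autosomal copy, lies on the minus strand at chr10:39669674-39669733, and capitals mark the stop codon that ends its open frame.
RPL10L: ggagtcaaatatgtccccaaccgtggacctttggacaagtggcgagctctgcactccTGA
A coding probe of RPL27, on the plus strand at chr19:44437374-44437547, is shown because 34 of its bases, in capitals, also open the RPL27 probe with the lowest difference of all.
RPL27: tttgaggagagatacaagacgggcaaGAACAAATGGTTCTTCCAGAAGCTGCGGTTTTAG
The probes of RPL3L, on the minus strand at chr25:1990552-1990882 and chr25:1990539-1990869, share 47 bases, in capitals, and still read the gene very differently.
RPL3L, probe at -0.02: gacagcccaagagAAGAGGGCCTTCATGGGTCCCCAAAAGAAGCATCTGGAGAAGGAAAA
RPL3L, probe at 3.25: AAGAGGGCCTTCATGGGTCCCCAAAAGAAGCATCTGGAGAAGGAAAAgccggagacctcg

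Most cytosolic ribosomal protein messages were slightly lower in the crossbred pool. The median difference of the 84 genes was -0.31, with quartiles of -0.60 and -0.12, against a median of -0.06 over the 24757 detected transcripts. The difference was below 0 for 73 of the 84 genes, which is 86.9%, against 53.1% of all detected transcripts. A size of at least 1.5 on the log2 scale, a 2.83-fold change, was reached by 2 genes, RPL27 and RPL3L, where 10.2% of all transcripts reached it. So large differences were rarer and small ones in the lower direction more frequent than in the array as a whole. This comparison took no account of level, and large falls were not rarer among bright transcripts, as given below. At a linear fold of 1.5 or more, 22 genes, or 26.2%, were lower in the crossbred pool, against 22.3% of all transcripts. In the higher direction there were 4 genes, or 4.76%, against 21.5% of all transcripts. At a log2 difference of 1 or more, 6 genes were lower, where the share of all transcripts was 8.96%, and 2 were higher, where it was 12.9%. Against the SD of replicate spots, 39 of the 84 genes were lower by more than 0.34, where 34.5% of all transcripts were, 5 were higher by more than that, where 29.7% were, and 40 lay within it.

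**Figure D1:**
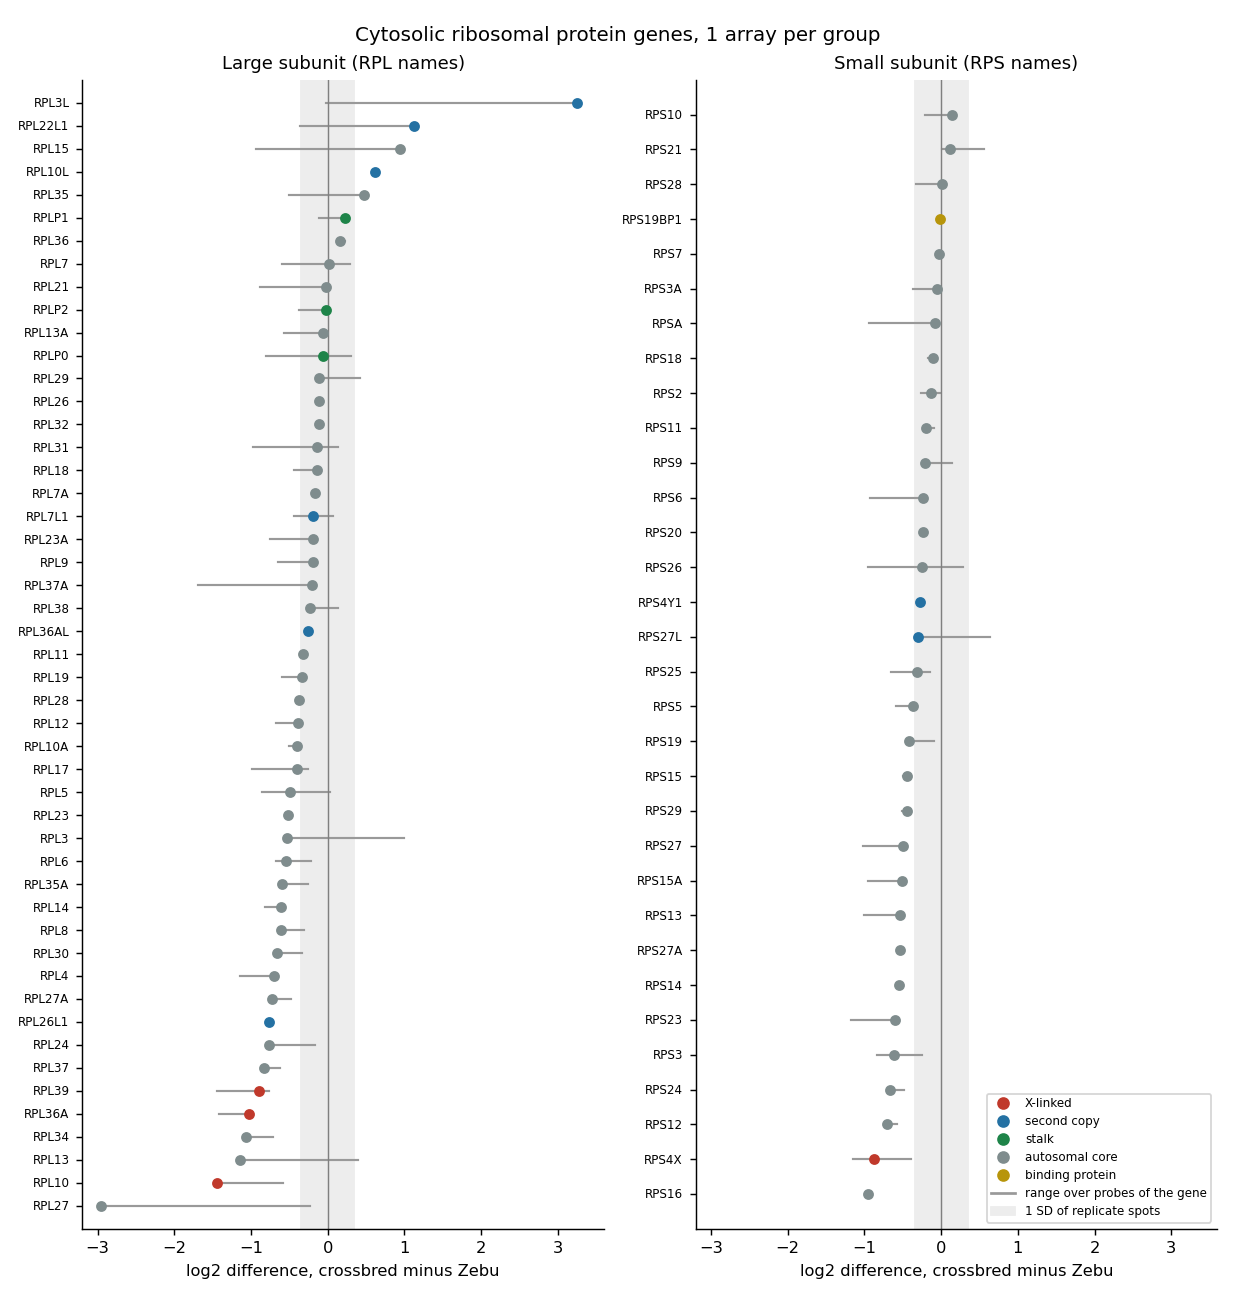
Log2 difference of 81 of the 84 genes, crossbred minus Zebu, with large subunit names on the left and small subunit names and RPS19BP1 on the right. Points are the brightest probe of a gene, lines span all its probes, and the grey band is 1 SD of a difference between replicate spots (0.34). Of the points, 70 lie left of 0, the 4 X-linked genes lie between -1.45 and -0.88, and the line of RPL3L is the widest.

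The shift in the median was seen in both subunits. Of the 50 large subunit names, 42 were below 0, with a median of -0.33. By a linear fold of 1.5, 16 of them (32.0%) were lower and 4 (8.00%) higher, against 22.3% and 21.5% of all transcripts. Of the 33 small subunit names, 30 were below 0, with a median of -0.30. Lower by that fold were 6, namely RPS16, RPS4X, RPS12, RPS24, RPS3 and RPS23. This is 18.2%, below the 22.3% of all transcripts. No small subunit name was higher by it. The subunits thus differed little in their median, and all 8 differences of 1 or more in size were among RPL names. Without RPS19BP1, whose difference was -0.01, the median was -0.31.

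The differences varied with the level of a probe. Among ribosomal protein probes with a mean level below 2 the median difference was -0.50 over 28 probes, and between 5 and 6 it was -0.45 over 81 probes. At a level of 6 or more it was -0.17 over 78 probes. In the same classes the other probes of the array had medians of -0.08, 0.25 and 0.17. The ribosomal protein probes were therefore lower than other probes in every class of level, and their difference was smallest where the signal was strongest. Among transcripts at a level of 3 or more, 80 of which were ribosomal protein genes, 21 of these 80 were lower by a linear fold of 1.5, against 9.14% of all transcripts at that level. A difference below 0 was found for 71 of the 80, against 41.9%. Lower by a log2 difference of 1 or more were 6 of the 80, against 48 of all 2626 transcripts at that level. Lower by 1.5 or more were 1 and 11. Higher by 1 or more were 0 of the 80, against 283 of the 2626. At a level of 3 or more, large rises were thus rarer among ribosomal protein genes, but large falls were not. Across the 272 probes, the difference and the mean level had a Spearman correlation of 0.31 and a Pearson correlation of 0.06, and the difference and the GC content of the probe had 0.09 and 0.15. These are across probes of the same 2 arrays, many of which overlap or share a gene.

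**Figure D2:**
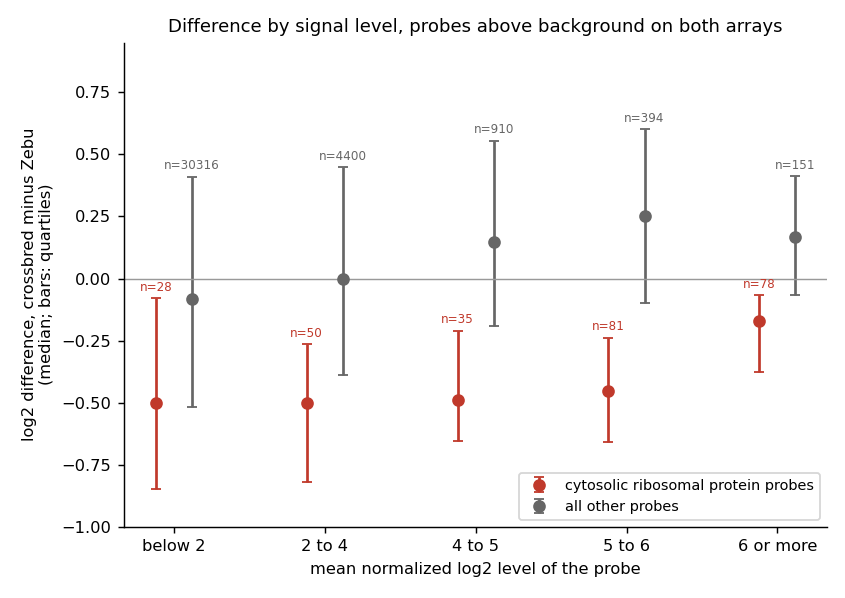
Median log2 difference (points) and quartiles (bars) of cytosolic ribosomal protein probes and of all other probes, by mean normalized log2 level. Only probes well above background in both pools are counted. The ribosomal protein medians lie between -0.50 and -0.17 and the other medians between -0.08 and 0.25.

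The probes of a gene mostly shared a direction. Of the 73 genes with several probes, 50 had every probe lower in the crossbred pool, 2 had every probe higher, and 21 had probes on both sides of 0. Many probes of a gene overlap, and the same counts were not made for the other genes of the array. The 2 genes with every probe higher were RPS21, with 4 probes between 0.01 and 0.56, and RPL36, with 0.16 and 0.22. In 27 of the 84 genes every probe was lower by more than the SD of replicate spots. Among these, RPS14, RPS27A, RPL28 and RPL26L1 were read by 1 probe each. The range between the probes of a gene had a median of 0.45. Counted by probe, 233 of the 272 were below 0, with a median of -0.38. Of the probes, 86 were lower by a linear fold of 1.5, which is 31.6%, against 22.8% of all detected probes. A log2 difference of 1.5 in size was reached by 3 probes, one each of RPL27, RPL3L and RPL37A, where 9.12% of all probes reached it.

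Among the core proteins the lowest values included those of RPL27, RPL13 and RPL34, which belong to the large subunit. RPL27 had a level of 3.84 in the crossbred and 6.79 in the Zebu pool by its brightest probe, a difference of -2.95, the lowest of the 84 genes. Its other probes gave 5.85 and 6.09, a difference of -0.23, and 4.19 and 4.54, a difference of -0.35. The value of -2.95 therefore rests on 1 spot, although the probe behind it shares 34 bases with the coding probe printed above. The spots around it had a median difference of 0.07, so the surroundings of this spot were not low. RPL34 had 4.02 and 5.10, a difference of -1.07, and its other probe gave -0.71. Both probes of RPL34 were thus lower.

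RPL13, at 5.07 and 6.21, had a difference of -1.14, and 3 further probes gave -1.02, -0.73 and -0.71. The remaining probe went the other way, at 5.16 and 4.77, a difference of 0.40. Its letters are nearly those of the probe at -0.73, as 30 and 29 bases from their shared stretch show, in which the capital is a base that the other lacks. Both read the plus strand of chromosome 18, at chr18:13527716-13527775 and chr18:13527711-13527769.
RPL13, probe at -0.73: agaaaaaataaagtgctgttggcaacttg
RPL13, probe at 0.40: agaaaaaataaagtTgctgttggcaacttg
A like pair was found in RPL3, which lies near the catalytic centre of the large subunit. By its brightest probe it had 4.98 and 5.51, a difference of -0.53, and a further probe at chr5:117900269-117900328 gave -0.52. A probe over the same place, at chr5:117900270-117900326 on the minus strand as well, had 2.89 and 1.89, a difference of 0.999. The stretch in which they differ is shown with the bases that the other lacks in capitals.
RPL3, probe at -0.52: agattgtacagctggtagaacctcaat
RPL3, probe at 0.999: aCgattgtacaCgctggtagaacctcaCat
The other RPL3 probes were at -0.50, -0.31 and -0.09, and a probe listed on the opposite strand, at levels of -2.43 and -2.43, was at 0.0035. In both genes the probe with extra bases had the highest difference.

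RPL15, a large subunit protein, was the core gene with the highest difference, but its probes differed along the transcript. Its brightest probe had 6.36 in the crossbred and 5.41 in the Zebu pool, a difference of 0.94. The other 7 probes were all lower. The coding probes that start at bases 180 and 457 of the transcript gave -0.14 and -0.15, both within the SD of replicate spots. The brightest probe starts at base 643, and 5 probes that start between bases 1392 and 2049 gave -0.94, -0.90, -0.85, -0.74 and -0.73. The difference was thus near 0 in the coding part, raised at base 643 and low beyond it, and by the median of all probes RPL15 stood at -0.73. The probe at base 643, on the plus strand at chr27:46215674-46215733, holds the letters AATAAA, the usual signal for polyadenylation, in the stretch shown, where capitals mark it.
RPL15: aagtccttacctAATAAAcaatttaggacg
On the strand as listed, AATAAA stood in 75 of the 272 ribosomal protein probes, or 27.6%, against 8.35% of the 51279 probes of the array. The median difference was -0.34 with these letters and -0.39 without them.

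Other transcripts showed no common direction from end to end. In 71 genes several probes came from the same RefSeq accession, and the probe nearest the 3′ end was lower than that nearest the 5′ end in 35 and higher in 36. Over the 58 genes whose outer probes started at least 60 bases apart, the counts were 30 and 28, with a median of -0.02. RPL37A had -0.45 at base 166, -0.21 at base 324 and -1.69 at base 398, where the levels were -0.55 and 1.14. RPL17, a protein beside the exit tunnel of the nascent chain, had its 7 probes between -0.99 and -0.26, the higher values toward the 3′ end. RPL35, of the same region of the ribosome, had 5.73 and 5.25 by its brightest probe, a difference of 0.48, and -0.50 and -0.51 by the probes at bases 863 and 874. RPL31 had 5 probes between -0.14 and 0.13 and a sixth at -0.97.

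**Figure D3:**
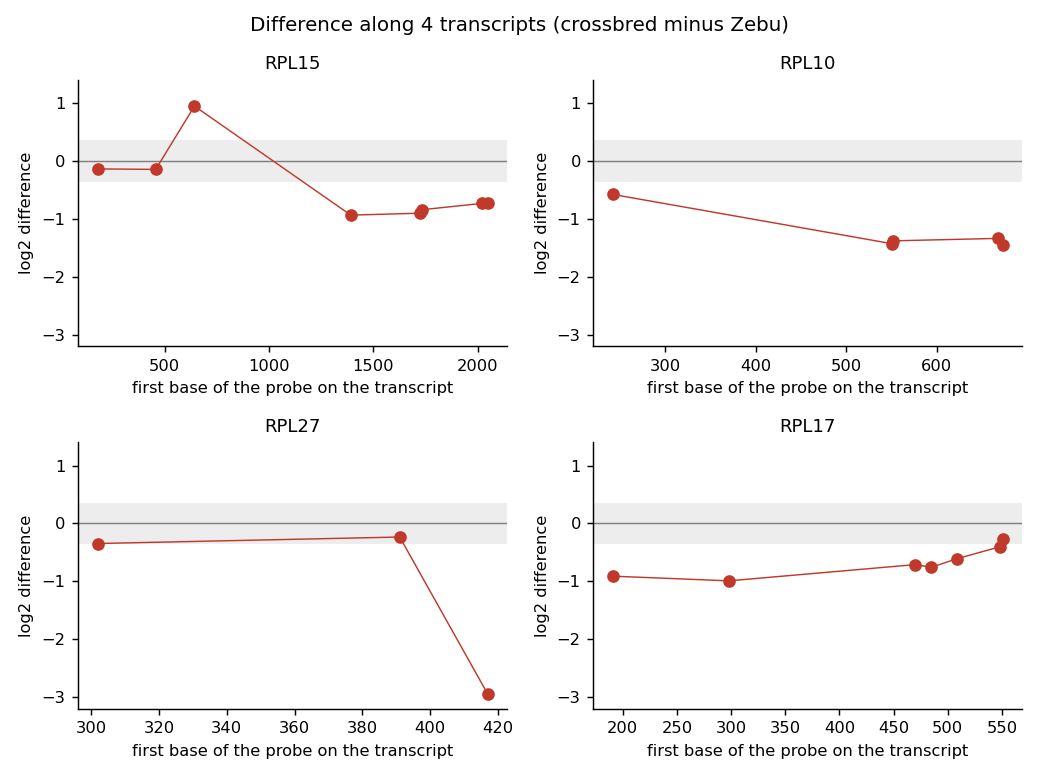
Log2 difference (crossbred minus Zebu) of each RefSeq probe of RPL15, RPL10, RPL27 and RPL17 against the first base of the probe on the transcript, with 1 SD of replicate spots (0.34) in grey. The point of RPL15 at base 643 is the only one of the 4 genes above the band, and the last point of RPL27 is at -2.95.

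The X-linked ribosomal protein genes were lower in the crossbred pool without exception. The gene table lists RPL10, RPL39, RPL36A and RPS4X on the X chromosome, and their median difference was -0.96. All 16 of their probes were below 0, between -1.45 and -0.39, and 14 of the 16 were lower by a linear fold of 1.5. The autosomal core genes, 68 in number, had a median of -0.36. The other detected transcripts of the X chromosome had a median of -0.47 over 442 names, of which 196, or 44.3%, were lower by a linear fold of 1.5. Transcripts of other chromosomes had a median of -0.04 over 12553 names, with 21.4% lower. Many of the 24757 detected transcripts have array names that are not symbols of the gene table, and these are in neither group. The X-linked members therefore stood below both the other ribosomal protein genes and the other X-linked transcripts, in a group of 4 that was not tested.

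RPL10, which joins the large subunit late in its assembly, had 4.33 in the crossbred and 5.77 in the Zebu pool by its brightest probe, a difference of -1.45, or 2.72-fold. A probe that starts 5 bases upstream gave 4.40 and 5.74, a difference of -1.34. The pair printed above gave 2.37 and 3.80 for the upper and 2.85 and 4.24 for the lower. Their differences of -1.43 and -1.38 lay closer together than the SD of replicate spots. The probe nearest the 5′ end was at -0.58, and a probe listed on the opposite strand was at -0.68. RPL39, which lines the exit tunnel, had 4.86 and 5.75 by its brightest probe, a difference of -0.89, and its other probes gave -0.77 and -1.45. RPL36A had 4.20 and 5.23, a difference of -1.03, and -1.41 by its other probe. RPS4X, of the small subunit, had 5.02 and 5.89, a difference of -0.88, and its other probes lay at -1.16, -0.90, -0.64 and -0.39.

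The autosomal copies did not share these values. RPL10L, on chromosome 10, was read by 1 probe and 1 spot, at 5.05 in the crossbred and 4.44 in the Zebu pool, and its difference of 0.62 was the reverse of that of RPL10. RPL36AL, also on chromosome 10, had 5.32 and 5.57 over 3 spots, whose differences were -0.24, -0.32 and -0.21, with a mean of -0.25. A further spot of this probe, marked as an outlier by the scanner software and left out, had 3.72 and 5.59, and with it the mean was -0.66. RPS4Y1, which the table places on chromosome 23, had 4.75 and 5.03 by its brightest probe and 2.51 and 2.78 by the other, differences of -0.28 and -0.27. So of the 4 probes of these copies, 1 was higher by more than the SD of replicate spots and 3 were lower by less than it.

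**Figure D4:**
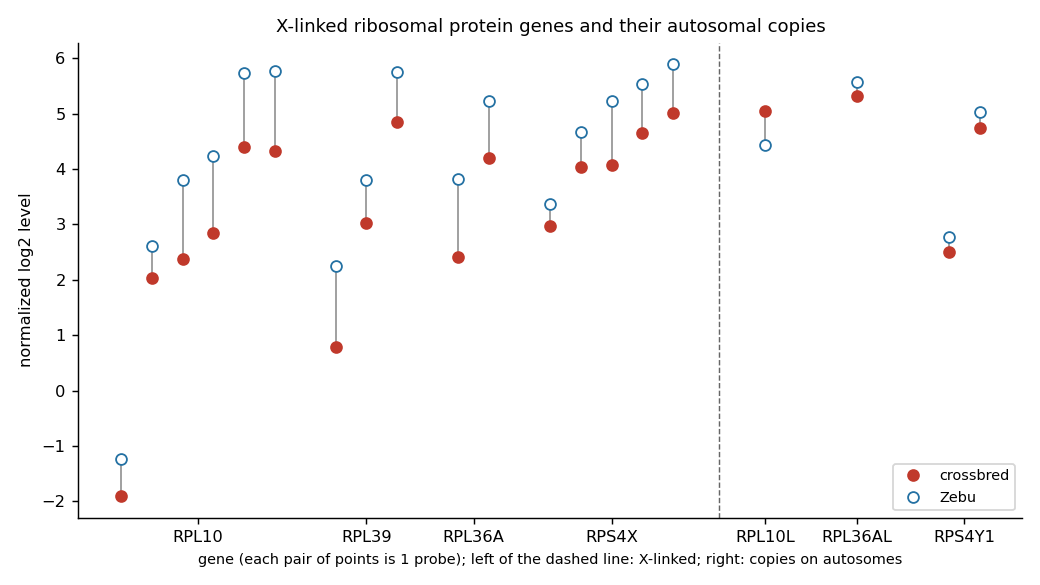
Normalized log2 level in the crossbred (filled) and Zebu pool (open) of each probe of the X-linked genes RPL10, RPL39, RPL36A and RPS4X and of the copies RPL10L, RPL36AL and RPS4Y1. All 16 X-linked probes are lower in the crossbred pool, and RPL10L is the copy with the higher crossbred level.

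The other paralogs varied from probe to probe. RPL3L, which is largely confined to heart and skeletal muscle, had 0.44 in the crossbred and -2.81 in the Zebu pool by its brighter probe, a difference of 3.25, the highest of the 84 genes. Its other probe, which shares 47 bases with it, had -3.07 and -3.05, a difference of -0.02. The gene was thus higher by 1 of its 2 probes only. RPL22L1, the paralog of RPL22, had 2.71 and 1.58 by its brightest probe, a difference of 1.13, and 0.24, -0.10 and -0.37 by the others, which lie nearer the 3′ end. RPS27L, a target of p53, had 2.57 and 2.87, a difference of -0.30, and 0.64 by its other probe. RPL7L1 had 3.31 and 3.50, a difference of -0.19, and its 4 probes lay between -0.44 and 0.06. RPL26L1, with 1 probe, had 2.29 and 3.05, a difference of -0.76. Of the genes these copies resemble, RPL7 had 6.30 and 6.28, a difference of 0.02, and its probe on the bright patch gave 0.29. RPL26 was at -0.12 and RPS27 at -0.50, with -1.01 and -0.86 by the other probes of RPS27.

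The stalk proteins RPLP0, RPLP1 and RPLP2, which draw elongation factors to the ribosome, were close to 0. RPLP1 had 7.41 and 7.19, a difference of 0.22, and its other probes gave 0.10 and -0.11. RPLP2 had 7.26 and 7.28, a difference of -0.03, with a range of -0.38 to -0.02 over 4 probes. RPLP0 had 6.93 and 6.998, a difference of -0.07, while its probes at bases 109 and 501 gave -0.79 and -0.80 and the outermost 3′ probe 0.30. By the brightest probe none of the 3 differed by more than the SD of replicate spots.

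The proteins with further known roles named next lay between -0.62 and 0.14 by the brightest probe. RPS6, the substrate of S6 kinases, had 6.24 and 6.47, a difference of -0.23, and all 7 probes were lower, down to -0.93. RPS3, at the entry of the message channel, had 6.13 and 6.75, a difference of -0.62, with 5 probes between -0.84 and -0.25. Both were lower by every probe. RPL5 and RPL11, which bind MDM2 together with 5S RNA, were at -0.49 and -0.32, and RPL11 had 1 probe. RPS27A, made as a fusion with ubiquitin, was at -0.54 by its only probe. RPSA, the laminin receptor, had -0.08 near the 3′ end and -0.94 at base 150. RPS10 was at 0.14, with probes down to -0.21.

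**Figure D5:**
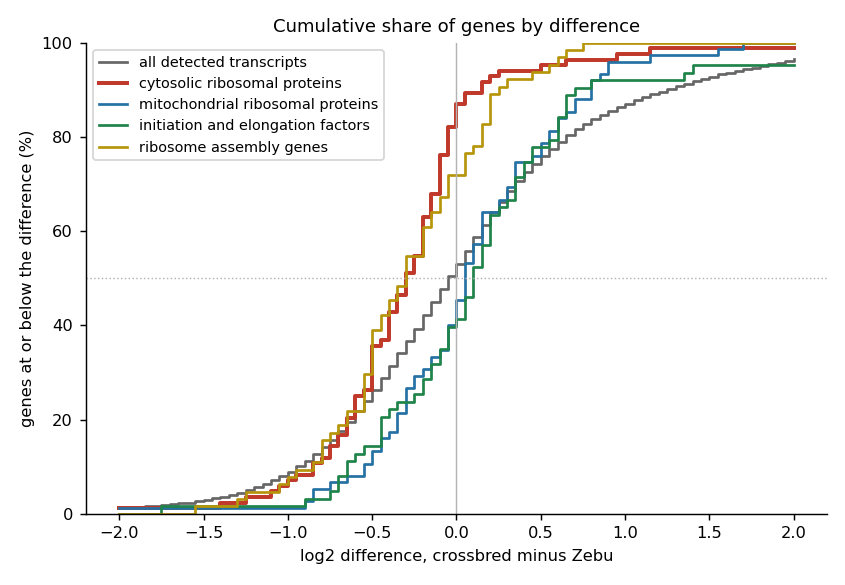
Cumulative share of genes (%) at or below each log2 difference (crossbred minus Zebu) for cytosolic ribosomal proteins, mitochondrial ribosomal proteins, initiation and elongation factors, ribosome assembly genes and all detected transcripts. At a difference of 0 the curve of the cytosolic ribosomal proteins stands at 86.9%, that of the mitochondrial ones at 45.3% and that of all transcripts at 53.1%.

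Other genes of translation did not all share the shift. The 75 mitochondrial ribosomal protein genes (names starting with MRPL or MRPS), which serve the ribosome of the organelle, had a median of 0.03, which was -0.09 under quantile normalization, with 7 (9.33%) lower and 13 (17.3%) higher by a linear fold of 1.5. The 63 detected names starting with EIF or EEF, mostly initiation and elongation factors, had a median of 0.09, with 8 (12.7%) lower and 10 (15.9%) higher. EEF1A1, the main carrier of transfer RNA, was at -0.17, and EEF2, which moves the ribosome along the message, at -0.21. Neither list had the lower median of the cytosolic ribosomal proteins. The 64 ribosome assembly genes on the array did, at -0.33, with 46, or 71.9%, below 0. By a linear fold of 1.5, 15 of them, or 23.4%, were lower, which is near the 22.3% of all transcripts, and 2, or 3.12%, were higher, against 21.5%. Among them FBL, which methylates ribosomal RNA, was at -0.31, and NPM1, a nucleolar chaperone, at -0.34.

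Of 23 genes that act on ribosomal protein messages or on the ribosome, 10, or 43.5%, were lower by that fold, against 22.3% of all transcripts, and 3 were higher, against 21.5% of all transcripts, with a median of -0.42. LARP1, which binds the messages of ribosomal proteins, was at -0.18. MTOR, with 1 dim probe, had -2.99 in the crossbred and -3.74 in the Zebu pool, a difference of 0.75. RPTOR, the partner of MTOR, had -0.21 and -3.01 by the brighter of its 2 probes, a difference of 2.81. The other probe of RPTOR is not given here. MYC, which drives ribosome production, was at -0.98. The list therefore held values far apart in both directions. Of the ribosomal proteins and partners under other names, FAU was at -0.23 and GNB2L1, the scaffold RACK1, at -0.48.

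Marker genes of testis cells differed between the pools as well. The 14 spermatid markers were all higher in the crossbred pool, with a median of 1.80 and 10 past 1.5, and their summed linear level was 821 against 379. The 11 spermatocyte markers were all above 0, with a median of 0.50 and sums of 88.6 and 64.1. Of 9 detected spermatogonia markers, 7 were below 0, with a median of -0.71 and sums of 38.3 and 54.1. The same direction was seen for 8 of 9 Sertoli cell markers (median -0.90, sums of 179.0 and 277.2), 7 of 7 peritubular and smooth muscle markers (-0.76, 46.5 and 79.6) and 7 of 9 Leydig cell markers (-0.57, 112 and 165). Endothelial markers had a median of 0.13 and sums of 6.68 and 3.05, macrophage markers 0.13 and sums of 34.7 and 24.6, and B and plasma cell markers 0.74 and sums of 2.45 and 1.41. The linear sums leaned on the brightest genes of a list. CLDN5, at 2.48 and 0.94, made up most of both endothelial sums, and 3 of the 7 endothelial markers were below 0. UCHL1, CLU and INSL3 were the brightest spermatogonia, Sertoli and Leydig cell markers, with differences of -0.62, -0.48 and -0.44. Of the red blood cell markers 1 of 4, HBA, was detected, at -2.15, and among the defining markers LIN28A of spermatogonia was not well above background on either array. So markers of late germ cells stood higher and those of spermatogonia and somatic tubule cells lower, next to the lower ribosomal protein messages. The part of these markers in the ribosomal protein values was not tested. In pooled whole tissue, fewer cells of a type and less RNA per cell cannot be told apart.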

How the data were processed

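Each group was 1 pool of RNA from 3 bulls on 1 one-colour array, so the crossbred and the Zebu pool form the groups and no test was made. The authors deposited the processed signal of each spot, an intensity from which Agilent Feature Extraction had subtracted the background, not normalized between arrays, with the mean and local background intensity. They also deposited log2 values after a 75th percentile shift. Here control spots and 13 outlier spots were left out, log2 processed signals were shifted by the 75th percentile (1042 crossbred, 1092 Zebu), spots were averaged per probe, and a gene was read from the member probe of highest mean processed signal. A probe was above background where all its spots were marked so, and a transcript was detected where its probe was so on either array. Probe levels served to form classes of signal and, summed on the linear scale, to describe marker lists, and genes were not ranked by level. Precision is limited by the number of arrays.

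The members, lists and named genes were chosen with earlier results of these data known. Named were the 5 largest rises and falls, genes with a probe past 1.5 or on a marked patch, the 5 widest probe ranges, X-linked genes, paralogs, the stalk and genes with further roles. Further lists covered mitochondrial ribosomal proteins, translation factors, ribosome assembly, regulators and cell markers. The alternatives were normexp (offset 50), other scalings, the authors' values, other readings of probes, patches left out, a local correction, no dim filter and other thresholds. The steps were tested on simulated data. Python 3.11.15, numpy 2.4.6, pandas 2.3.3, R 4.3.3 and limma 3.58.1 were used. Real-time PCR was not analysed here, and some genes are not reported here.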

Additional observations from a re-analysis of the deposited data

How the results depend on the processing

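The median difference of the 84 genes was -0.31 and lay between -0.44, under quantile normalization, and -0.29, after the local median difference was subtracted. Minus the median of all transcripts it lay between -0.35 and -0.25. Genes below 0 numbered 70 to 76. The count past a log2 difference of 1.5 was 2, 3 under quantile normalization, 1 by the mean or by the median of all probes, 8 at a threshold of 1 and 26 at a linear fold of 1.5. Genes lower by a linear fold of 1.5 numbered 19 to 34, the latter under quantile normalization, and the higher ones 2 by the mean or the median of all probes in place of 4. The share of all transcripts lower by that fold moved as well, between 14.3%, under normexp, and 23.75%, in place of 22.3%. The counts of members are not set beside the share of their own setting here. The lowest and highest counts alone therefore do not show a departure from the array. The X-linked median lay between -1.15 and -0.95. RPL15 changed sign with another reading of probes, to -0.44 by the mean and -0.73 by the median, and so did RPL35, to -0.17 and -0.50. For RPL15 the 7 lower probes set this sign. RPL27 stood at -0.35 by the median of its probes. RPL36AL was at -0.66 in the authors' values, a value that the mean with the outlier spot counted in also gave. Of 340 values of the 34 named genes under 10 alternatives, 319 stayed within the SD of replicate spots and 17 moved by more. The other 4, of RPL15 and RPL35, changed sign from a difference larger than that SD. Sign changes of smaller differences were counted among the 319 and the 17. Of such genes, RPS27L reached 0.17, RPL7 -0.15, RPS10 -0.015, RPLP2 0.059 and RPL26 0.0034. Of the 17 and the 4, 19 came with the mean or the median of all probes. The pooled count overstates stability, because some alternatives could not move a value. Dropping the dim filter changed no difference, and a gene with 1 probe has the same mean and median. The medians of 2 companion lists changed sign, that of the mitochondrial ribosomal proteins to -0.09 under quantile normalization and that of the ribosomal proteins and partners under other names from -0.23 to 0.12 by the mean or median of all probes. The median lay between 0.0058 and 0.10 for translation factors, -0.45 and -0.27 for ribosome assembly, and -0.51 and -0.28 for the regulators. Results for the X-linked genes, for genes below 0, for lower and higher genes counted apart at a linear fold of 1.5 and without RPS19BP1 were chosen after seeing the data. No paired analysis was possible because each group has 1 array, and for the same reason no array could be left out. Near-identical copies elsewhere in the genome may share signal with these probes.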

Other observations

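Further probes read ribosomal protein genes from outside the naming rule. The 37 probes of RPL or RPS names that the array describes only by a clone or another title included 11 well above background on both arrays, of which 10 were below 0, with a median of -0.36. The 76 probes of other names described as a ribosomal protein or as like one included 42 above background on both arrays, of which 34 were below 0, with a median of -0.35. RPL22 fell outside the rule because its description names it otherwise. By its brighter probe it had 3.50 in the crossbred and 4.10 in the Zebu pool, a difference of -0.60. Its other probe was at -3.12 in the Zebu pool and, at -5.45, not well above background in the crossbred pool. The difference of -2.33 by this dim probe is therefore uncertain in size. RPL39L was not analysed here.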
